A study of Mus musculus with 10 samples.

Results

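The wild-type mouse embryo of 3.0 days post coitum (dpc) is described here across all the genes that its arrays measured. The series held 10 single embryos, and the 5 labelled wild type (WT1 to WT5) were taken by genotype label and by nothing else. The other embryos carried a Klf5 knockout and were not used. Each embryo was flushed from the oviduct at E3.0, its cDNA was amplified on its own, labelled with biotin and read on 1 Affymetrix array, so the 5 embryos are 5 arrays with no technical repeats. No label gives strain, litter, sex or cell number, and nothing says whether the embryos shared a mother. The spread between them therefore holds biological and technical parts that cannot be told apart. Because each array reads a whole embryo, fewer cells of a type and less RNA per cell cannot be told apart either.

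At this stage a mouse embryo passes from a compacted morula to an early blastocyst. Its outer cells polarise, switch off the Hippo kinase cascade and become trophectoderm, the epithelium that pumps fluid into the cavity and later makes the placenta. The inner cells form the inner cell mass, in which NANOG comes to mark the epiblast, the source of the fetus, and GATA6 the primitive endoderm, which lines the yolk sac, under the control of FGF4 and ERK signalling. The transcripts laid down in the egg have mostly been cleared by then, and the embryo's own genome has been active since the 2-cell stage. In female embryos the paternal X chromosome is coated by Xist RNA.

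The arrays fell into 2 sets by their control probe sets. The spiked-in bioB control, a bacterial transcript added at hybridisation, had a mean log2 intensity of 8.48 to 8.65 on WT1, WT2 and WT3 but of 6.69 on WT4 and 6.59 on WT5. The bioC, bioD and cre controls were not lower on WT4 and WT5. WT4 and WT5 also had the stronger 3′ bias, meaning that probes near the end of a transcript outshone probes in its middle. The ratio of 3′ to middle signal for actin was 6.55, 8.14 and 7.94 on WT1 to WT3, against 27.1 on WT4 and 16.7 on WT5. For Gapdh it was 4.06 to 5.57 against 19.2 and 12.9, and for the lys control 4.42 to 5.81 against 23.2 on WT5, with WT4 between. Every result that turns on WT4 and WT5 is given with this in view, and embryo and array set cannot be told apart.

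After 53 control probe sets were left out, 38623 probe sets remained and 16936 genes were named by a probe set with a single symbol. Where several probe sets named a gene, the one with the highest mean stood for it. A gene counted as above background on an array where it passed the 95th percentile of 99 probe sets for olfactory, vomeronasal and taste receptors, keratin-associated proteins and beta-defensins, genes with little or no transcript expected in such an embryo. That level lay between 84.2 and 115 intensity units on the 5 arrays. By this rule 5707 genes (33.7%) were above background in all 5 embryos and 8559 (50.5%) were at background in all 5, which leaves 2670 above in some embryos. Single embryos had 7058, 7739 and 7543 genes above background in WT1 to WT3, and 6394 in WT4 and 6596 in WT5. Of the background probe sets themselves, 4 were above the level on all 5 arrays. A gene a little above the level is therefore weak evidence of a transcript. At background means only that no signal was seen over that level.

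The brightest probe sets were those of the protein-making machinery. Of the 20 genes with the highest mean log2 intensity, 10 encode ribosomal proteins (Rpl41, Rpl37a, Rplp2, Rpl35, Rps10, Rps26, Rpl4, Rps14, Rps18 and Rps24). The others were Lrpap1 (a chaperone of LDL-receptor family proteins), Tmsb10 (an actin-binding thymosin), C1qbp (a mitochondrial matrix protein), Uqcrb and Cox6b1 (respiratory chain subunits), Pabpn1 (a nuclear poly(A)-binding protein), Nme2 (a nucleoside diphosphate kinase), Tpt1 (a tumour protein abundant in growing cells), Npc2 (a lysosomal cholesterol carrier) and Pgd (an enzyme of the pentose phosphate pathway). Rpl41 read 27393, 28510, 29892, 23769 and 27527 in WT1 to WT5. Lrpap1 read 17068, 21996, 24580.0, 23655 and 22703. The single intensities of these 20 genes lay between 12941 and 29892, and their SDs over the embryos between 0.053 and 0.26 on the log2 scale. The order of brightness is that of probe sets, which differ in how well they bind, so it is not an order of transcript abundance.

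The brightest probe sets differed little between embryos, but other probe sets of the same genes differed more. Of the 100 brightest genes, 65 were among the 100 brightest in each of the 5 embryos, and the median SD of the 100 was 0.16, against 0.28 over all 12527 genes past the level filter. The 100 held 23 ribosomal protein genes, 6 genes of elongation or initiation factors (Eef and Eif symbols), 6 of the respiratory chain and ATP synthase, 3 of the proteasome and 2 heat shock genes. Of the 100 genes, 79 had a further probe set above background in all embryos, and the next-brightest had the larger SD for 66 of them (median 0.37 against 0.15 at the brightest). C1qbp read 20201 to 22204 at its brightest probe set and 3224, 3363, 3037, 928 and 1067 at the next, and Pgd read 2797, 2692, 3562, 1035.0 and 1282 at its dimmest against 16051 to 18566 at its brightest. For 10 of the 79 the next-brightest probe set was called lower in WT4 and WT5 by limma, beside 3.36% of all probe sets past the level filter. No share among probe sets of like level was computed. A small SD at the top of the scale is therefore a value of that probe set and not shown to be a steady transcript level. Spread depended on level. The median SD was 0.19 for genes with a mean log2 intensity of 5 to 7, 0.38 for 7 to 9, 0.40 for 9 to 11, 0.31 for 11 to 13 and 0.18 for 13 to 15.

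**Figure D1:**
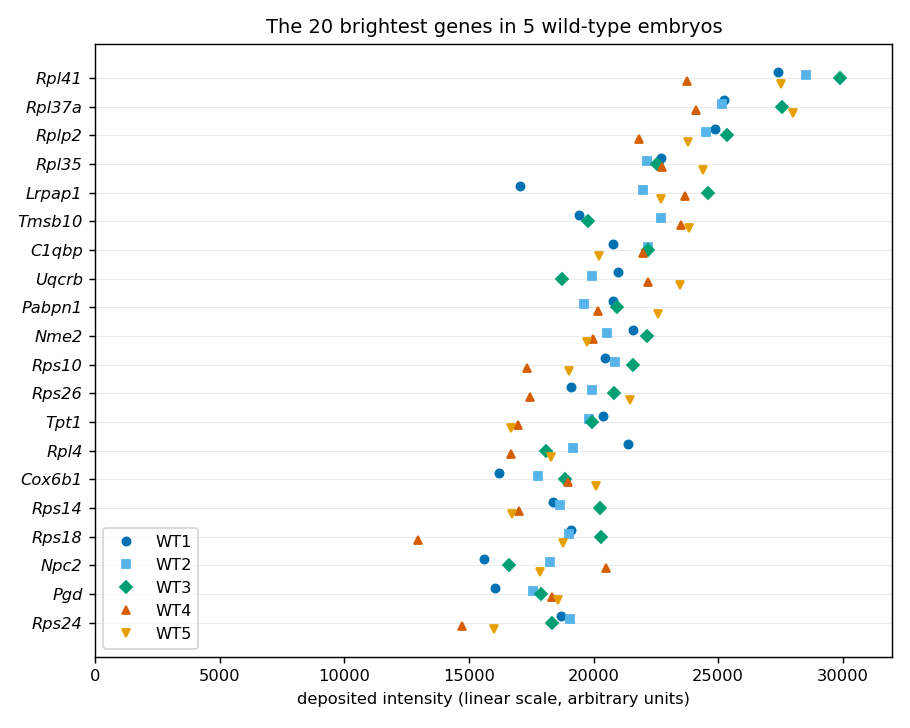
Intensity of the 20 brightest genes in each wild-type embryo, on a linear axis from 0 in arbitrary units, 1 symbol per embryo. All values lie between 12941 and 29892, and the widest spread among them is that of Rps18 (SD 0.26), which was lowest in WT4.

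The housekeeping lists were on nearly complete, and wider families of the same kind somewhat less so. All 22 measured genes of the translation factor list were above background in all 5 embryos, beside 33.7% of all genes. So were 28 of 29 listed proteasome subunits, 38 of 40 listed respiratory chain and ATP synthase subunits and 25 of 28 listed ribosomal proteins. Taken by symbol, the counts were 46 of 58 Eef and Eif genes and 43 of 49 Psm genes. They were 83 of 98 for respiratory chain and ATP synthase symbols and 37 of 47 for ribosomal protein symbols. Eef1a1, which delivers aminoacyl-tRNA to the ribosome, read 19970.4, 18506 and 18066 in WT1 to WT3 but 7951 in WT4 and 12072 in WT5. Cox5a, a subunit of cytochrome c oxidase, read 14023, 13843, 13594, 13867 and 13785 at its brightest probe set (SD 0.016) but 7561, 6968, 7119.7, 3426 and 4207 at another (SD 0.52). Rpl13a read 14531, 14482, 14773, 14647 and 15105 at its brightest (SD 0.024) and 14078, 11128, 12202, 5549.8 and 8139 at its dimmest (SD 0.54). Both of the dimmer probe sets were lowest in WT4. The listed ribosomal genes at background, Rps4x (45.1 to 54.2) and Rpsa (12.9 to 21.3), encode core proteins of the small subunit. Each was read at the brightest probe set that carried its symbol alone.

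Energy and lipid genes were on in part. Of 17 glycolysis genes 11 (64.7%) were above background in all embryos and 4 (23.5%) at background in all, beside 33.7% and 50.5% of all genes. Slc2a3, the high-affinity glucose transporter GLUT3, was the brightest of them at 3005 in WT1, 11744 in WT2, 11316 in WT3, 5125 in WT4 and 5497 in WT5. WT1 had the lowest level of this transporter and WT2 and WT3 the highest. Pgk1, an ATP-producing enzyme of the lower part of the pathway, read 1917, 1282, 2512, 3218 and 3303. Ldha, which turns pyruvate to lactate, was low at 222, 52.1, 163, 151 and 128, and Pfkm, the muscle form of phosphofructokinase, was at background (45.7 to 64.4). Of 23 genes of cholesterol and fatty acid synthesis, 17 (73.9%) were above background in all 5 embryos, with Acly, Fdft1 and Hmgcs1 the brightest. Fasn, the fatty acid synthase, read 1027, 1068, 944, 1366 and 864.

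Genes of cell division were largely on, and 23 of 33 genes of the cell cycle list (69.7%) were above background in all embryos, beside 33.7% of all genes. Mcm5, a subunit of the replicative helicase, read 11319, 12094, 10067, 13900 and 14455, and Cdc20, the activator of the anaphase-promoting complex, 9747, 11785, 12522, 15977 and 11408. Cdk1, the kinase that drives mitosis, read 2282, 2497, 4436, 1329 and 1257. Cyclin genes differed in level: Ccna2 was above background throughout (715 to 2634), Ccnd3 was the most variable gene of the list (1030.1, 789, 2315, 244 and 361, SD 1.25), and Ccnd2 was at background in all 5. Cdkn1a, which encodes the cell cycle inhibitor p21, read 400, 669, 755, 1296 and 1641. Of 15 apoptosis genes 7 (46.7%) were on in all embryos, led by the survival gene Mcl1 (3167 to 6729). The death-promoting Bak1, Bid and Bbc3 were at background.

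Chromatin regulators were on in all embryos for 21 of 28 genes, beside 33.7% of all genes. Trim28, the corepressor that protects imprints and silences retroviral elements, was the brightest at 13409, 14602, 12951, 16420.3 and 13619. The de novo methyltransferase gene Dnmt3b (2533 to 4191) and the maintenance methyltransferase gene Dnmt1 (1244 to 1708) were on in every embryo, and the dioxygenase gene Tet3 was at background in all. Eed, a core subunit of the Polycomb repressor PRC2, read 1328, 1038 and 1117 in WT1 to WT3 but 306 in WT4 and 345 in WT5.

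**Figure D2:**
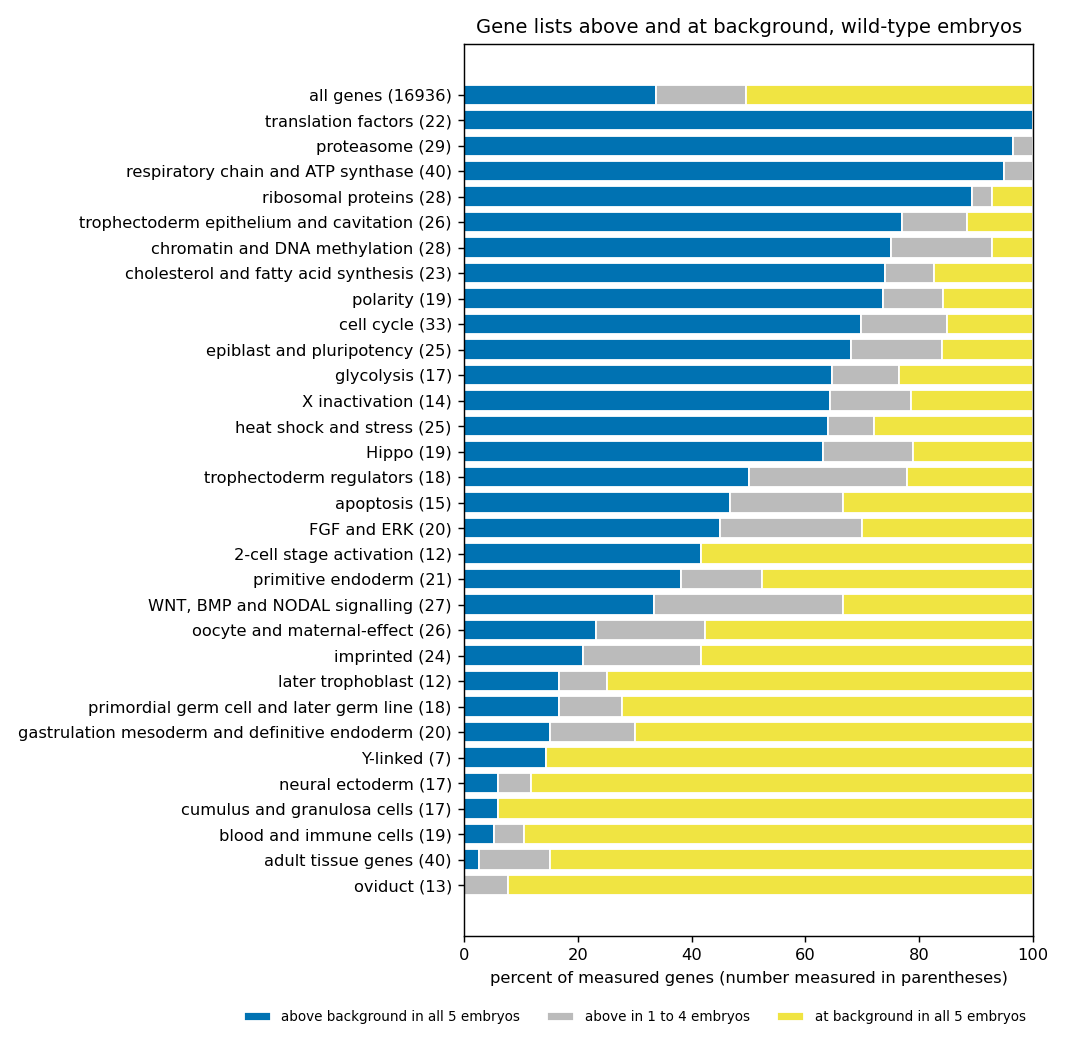
Share of the measured members of each of the 31 gene lists that were above background in all 5 wild-type embryos, above in some, or at background in all, with all 16936 genes for comparison. Housekeeping lists stand at 89.3% to 100% above background for ribosomal proteins, translation factors, proteasome and respiratory chain, and lists of adult, neural, blood, oviduct and cumulus genes at 0% to 5.88%.

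The trophectoderm programme was on, with its epithelial genes the most complete part. Of 18 regulators 9 were above background in all embryos and 4 at background in all, beside 33.7% and 50.5% of all genes. Cdx2, the homeobox factor that specifies trophectoderm, read 671, 482, 575, 515 and 424, an even level in all 5 (SD 0.24). Eomes, a T-box factor of the trophoblast lineage, read 229, 334, 472, 445 and 329. Gata3 read 611, 657, 301, 281 and 263, so WT1 and WT2 were above the others. Tfap2c, which encodes the factor AP-2 gamma and acts on polarity and trophectoderm genes, was far above background at 6169, 4523, 4163, 7906 and 5469. Gata2 and Elf5, which are known from trophoblast cells after this stage as well, were at background in all embryos (41.2 to 79.9 and 19.2 to 25.9). Sox21, a SOX factor reported to be uneven among cells of the cleaving embryo, was on at 637 to 899.

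Klf5 and Elf3 were bright and differed between the array sets. Klf5, a Krüppel-like factor of trophectoderm and inner cells, read 3201, 4183 and 4012 in WT1 to WT3 and 1096 and 1726 in WT4 and WT5. The difference between the array sets was -1.45 ± 0.24 (SE) on the log2 scale, with a limma adjusted p of 0.0475. A second Klf5 probe set did not follow, at 440, 741, 480 and then 783 and 506 (limma adjusted p 0.697). Elf3, an ETS factor of epithelia, read 1917, 1723 and 2182 against 491 and 465 (difference -1.98, limma adjusted p 0.0238).

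Of 26 genes of trophectoderm epithelium and cavitation 20 (76.9%) were above background in all embryos, beside 33.7% of all genes. The keratin pair of simple epithelia was among the brightest of all genes, with Krt8 at 11213, 14610, 18087, 9171 and 11392 and Krt18 at 8598, 9333, 14953, 6169 and 10109. Both were highest in WT3 and lowest in WT4. Krt19 was at background in all (22.4 to 36.7), and Krt7 was above it in WT1 (205) and WT5 (149) alone. E-cadherin (Cdh1), which holds the compacted cells together, read 1339, 1702, 1563, 1185 and 1518, and desmoplakin (Dsp), an anchor of keratin at desmosomes, 2435, 1994, 2160, 1814 and 2281. Atp1b1, a subunit of the sodium pump that drives fluid into the cavity, read 612, 1085, 913, 1520 and 769. Of the water channels, Aqp9 (253 to 495) and Aqp3 (145 to 327) were on in all embryos and Aqp8 in none. Claudin 7 (Cldn7), a tight junction protein, was the most variable member at 3528, 1998, 4804, 699 and 1356 (SD 1.09).

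Pluripotency genes were on in 17 of 25 cases (68.0%), beside 33.7% of all genes. Dppa2 read 9915, 14483, 14179, 15485 and 11139, Dppa5a 12451, 11846, 14182, 3363 and 7268, and the maternal and inner-cell gene Dppa3 (Stella) 13441, 13632, 12872, 6117 and 7185. These 3 genes had the brightest probe sets of the list. Tbx3 (2099 to 6211), Sall4 (1425 to 3707), Esrrb (764 to 1239) and Zfp42, known as Rex1 (307 to 1022), were above background in every embryo. Pou5f1, the gene of the pluripotency factor OCT4, was only a little above background at 366, 229, 212, 131 and 146. Sox2, its partner, was above background in WT1 (161), WT2 (128) and WT3 (414) and at background in WT4 (69.2) and WT5 (74.5).

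Nanog was the widest-ranging lineage gene. It read 1320.2, 2235 and 1989.9 in WT1 to WT3, then 339 in WT4 and 105 in WT5, the last of these under the background level of its array. The difference between the array sets was -3.14 ± 0.50 (SE) on the log2 scale (limma adjusted p 0.0441). Pluripotency genes as a list lay lower on WT4 and WT5, with a median difference between the sets of -0.85 against 0.02 over all tested genes. The list is brighter than genes at large (median mean log2 9.27 against 6.46 over all genes), and no comparison at like level was made. Other lists also lay lower, at -0.48 for translation factors, -0.44 for proteasome and -0.42 for cell cycle. Cholesterol and fatty acid synthesis lay at 0.07. Of the 23 tested pluripotency genes 3 were called lower (Nanog, Tfcp2l1 and Dppa3) and none higher, beside 3.22% of all tested genes called lower. The part that the 3′ bias of WT4 and WT5 plays in this was not tested.

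Of 21 primitive endoderm genes 8 (38.1%) were above background in all embryos and 10 (47.6%) at background in all, shares near those of all genes (33.7% and 50.5%). Gata6, the earliest of its factors, read 418, 623 and 509 in WT1 to WT3 and 151 and 146 in WT4 and WT5 (difference -1.68, limma adjusted p 0.0278). Another Gata6 probe set stayed between 250 and 330 in all 5, with an SD of 0.18, so the difference was seen by 1 probe set and not by the other. Pdgfra, a growth factor receptor of this lineage, was above background in WT1 to WT3 (156, 141 and 212) and at background in WT4 (66.2) and WT5 (84.2). The later factors Gata4 (24.8 to 33.3), Sox17 (35.4 to 48.2), Sox7 (32.6 to 46.6) and Foxa2 (17.5 to 28.2) were at background in all embryos. Dab2, an endocytic adaptor, was the brightest gene of the list at 2487, 3178, 2341, 1629 and 1193, and it is made by other cells of the embryo too. Basement membrane genes differed, with Lamb1 (452 to 1065) and Col4a1 (211 to 415) on and Lama1 and Lamc1 at background.

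**Figure D3:**
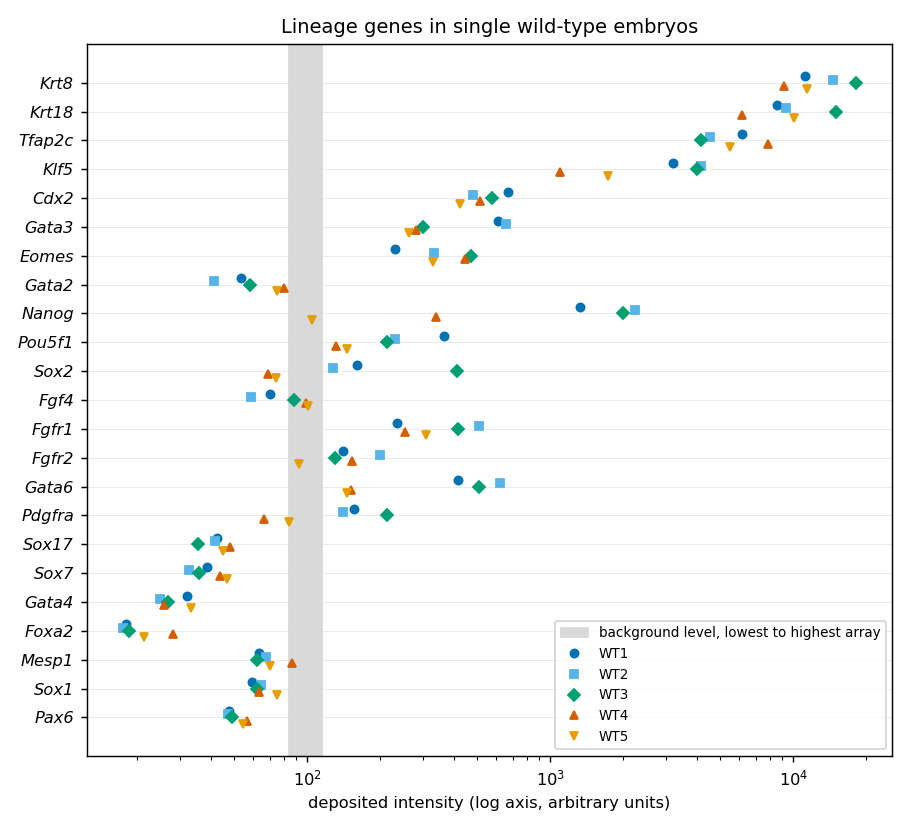
Intensity of trophectoderm, epiblast and primitive endoderm genes in each wild-type embryo on a log axis in arbitrary units, 1 symbol per embryo, with the background level of the 5 arrays as a grey band from lowest to highest. Cdx2, Eomes and Gata3 lie above that level in all embryos and Gata4 and Sox17 under it, while Nanog ranges from 2235 in WT2 to 105 in WT5.

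Signalling genes were read by role. Of the FGF ligands, Fgf4 was at background in all embryos (58.9 to 101), as were Fgf5 and Fgf8. Of the receptors, Fgfr1 was on in all at 235, 509, 418, 253 and 309, and Fgfr2 read 140, 199, 130, 153 and 92.4, under background in WT5. Downstream, the adaptor Grb2 (332 to 519) and the kinase gene Map2k2 (2017 to 3103) were on in all. The ERK target Spry2 read 532, 868, 551, 187 and 204, and its difference between the array sets was called (-1.62, limma adjusted p 0.0402). Dusp6, Spry4 and Etv5, which are also known ERK targets, were at background in all embryos, and Dusp4 was on in WT2 (398) and WT3 (95.6) alone. In total 9 of 20 genes of the pathway (45%) were above background in all embryos, beside 33.7% of all genes.

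The Hippo pathway had 12 of 19 genes (63.2%) above background in all embryos, beside 33.7% of all genes. Yap1, the coactivator that the cascade holds in the cytoplasm, read 2908, 2286, 3312, 2715 and 2783, and its paralogue Wwtr1 (TAZ) 834, 1502, 1003, 857 and 689. Their DNA-binding partner Tead4, which is required for trophectoderm, read 835, 816, 471, 529 and 484, and Amot, which holds YAP at junctions of inner cells, 823, 1296, 1236, 1269.9 and 941. The classical YAP targets Ccn1 and Ccn2 were at background in all. Of 19 polarity genes 14 (73.7%) were on, with Cdc42 (2768 to 4835) and Rhoa (2685 to 3685) the brightest. Of 27 genes of WNT, BMP and NODAL signalling 9 (33.3%) were on, about the share of all genes (33.7%). Nodal (57.3 to 62.9), Lefty1 and Bmp4 were at background, while the co-receptor gene Tdgf1 (148 to 432) and the convertase gene Furin (392 to 856) were on.

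Of 26 oocyte and maternal-effect genes, 6 (23.1%) were above background in all embryos and 15 (57.7%) at background in all, near the 33.7% and 50.5% of all genes. Those at background included Zar1, Mos, Bmp15 and Nobox. Those still on were Dppa3, Zp3 and 4 members of the subcortical maternal complex or its neighbours. Of these 4, Khdc3 read 3280, 4002, 7493, 1645 and 2085 and Ooep 499.8, 252, 902, 124 and 130, so both were highest in WT3, while Tle6 (136 to 227) and Padi6 (149 to 190) were near background. Of 12 measured genes of the 2-cell burst 5 were on (41.7%) and 7 at background (58.3%), also near the shares of all genes. Zfp352 (53.9 to 73.0), Tcstv3 (11.9 to 44.8) and Duxf3, which define that burst, were at background. Pramel6 read 10521, 11448, 13730, 13671 and 10006 and Pramel7 4600, 7068, 6408, 4390 and 1883, and both are known to stay on in the inner cell mass.

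Genes of later or other cells mostly gave no signal over background. At background in all 5 embryos were 15 of 17 neural genes, 14 of 20 genes of gastrulation, 9 of 12 of later trophoblast, 13 of 18 of the later germ line and 34 of 40 of adult tissues, beside 50.5% of all genes. Mesp1 (62.3 to 86.5), Sox1 (59.2 to 75.04) and Pax6 (47.1 to 56.3), the founders of mesoderm and neural tissue, were all there. The tissue around the embryo left little signal, since 16 of 17 cumulus and granulosa markers, 12 of 13 oviduct markers and 17 of 19 blood markers were at background. Their defining genes were low: the oviduct glycoprotein gene Ovgp1 read 18.9 to 48.1, the haemoglobin gene Hba-a1 14.8 to 20.5 and the macrophage gene Lyz2 64.6 to 81.4. Summed over the list, the oviduct markers reached 322 to 483 per embryo, the blood markers 703 to 1025 and the cumulus markers 1292 to 2899, the last of these mostly through 1 gene described next.

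A few genes went against their list and were singled out after their values were seen. Amhr2, the receptor of anti-Müllerian hormone and a granulosa marker, read 657, 1285, 1867, 2193 and 997, and a second probe set 631, 1225, 1919, 2089 and 929.7, while another was above background in WT3 alone. Nes, the intermediate filament nestin of neural progenitors, read 548, 398, 428, 523 and 623. Both were well above background in all embryos, while the rest of their lists was at background except Hes5, which was above it in 1 embryo. Gsc, a homeobox gene of the gastrula organiser, read 151, 212, 150.4, 246 and 351. Hhex (136 to 170), Cd8a (121 to 179), Pomc (116 to 157) and the Y-linked Sry (108 to 130) were closer to the level, which they passed in all embryos, and the other 4 Cd8a probe sets were at background. Piwil2 of the germ line list read 159, 408, 690, 223 and 302.

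Of 24 imprinted genes 5 (20.8%) were above background in all embryos and 14 (58.3%) at background in all, beside 33.7% and 50.5% of all genes. Those on were Gnas (318 to 1436), Igf2r (467 to 880), the maternally expressed noncoding RNA gene Meg3 (610, 378, 277, 675 and 1248), Impact and Slc22a18. Igf2 lay at the level of background (108 to 133), and Mest, Snrpn, Grb10 and Peg3's neighbour Usp29 were at background in all.

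Embryos differed most in a small set of genes. Over the 12527 genes past the level filter the median SD between embryos was 0.28 on the log2 scale, and 197 genes (1.57%) had an SD over 1. Within WT1 to WT3 the median SD was 0.20. Pairs of embryos from the same array set differed by 2-fold or more in 3.78% to 6.34% of genes, and pairs across the sets in 10.2% to 12.5%. Of the 197 genes, WT4 was the lowest embryo for 85 and WT5 for 53, against 25 for WT3, 23 for WT1 and 11 for WT2. The values below describe genes picked for their spread and carry no test.

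The largest spread was that of Bex1, an X-linked gene of a small adaptor protein, at 26.4 in WT1, 1894 in WT2, 2340.2 in WT3, 7678 in WT4 and 3446 in WT5 (SD 2.91). Xist, the noncoding RNA that silences an X chromosome, came next at 90.1 in WT1 and 4377, 3143, 6184 and 2282 in WT2 to WT5 (SD 2.36). WT1 was under the background level of its array for both genes, and each other embryo was far above it. The lowest of the others exceeded the background level of WT1 22.6-fold for Xist and 18.8-fold for Bex1, so the gap to WT1 itself was at least that large. A second Xist probe set gave the same order of WT1 against the rest, 9.37 against 170 to 312. Slc35a2, the X-linked UDP-galactose transporter gene, read 80.2 in WT1 and 984 to 1731 in the others, and another of its probe sets read 28.0 against 126 to 181. Its remaining probe sets were at background in all embryos.

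Other X-linked genes followed in the same list. Rhox5, a homeobox gene, read 165, 614, 3427, 892 and 1083, again lowest in WT1. E330016L19Rik read 42.3, 776, 20.7, 104 and 220, with WT3 lowest. In all, 5 of the 20 most variable genes (25%) and 15 of the 197 with an SD over 1 (7.61%) were X-linked, against 241 of the 8373 tested genes above background in at least 1 embryo (2.88%). Of these 15, WT1 was lowest for 5, WT4 for 6, and WT3 and WT5 for 2 each. Of the Y-linked genes, Eif2s3y read 73.1 in WT1 and 5.82 to 9.34 in the others, all under background. Kdm5d (15.5 to 18.6) and Uty (8.75 to 13.6) were at background with no embryo apart.

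The X chromosome as a whole was then set beside the autosomes, a step chosen after these values were seen. Only genes above background in all 5 embryos entered, so Xist, Bex1 and Slc35a2 did not. Over 145 such X-linked genes the median difference of WT1 from the other embryos was -0.21 on the log2 scale, against medians of -0.02 to 0.17 for the single autosomes. WT2 (0.32) and WT3 (0.24) were higher on the X chromosome than on any autosome. WT4 was lower on the X chromosome (-0.173) than on any autosome (-0.170 to 0.01) by that small margin, and WT5 (-0.08) lay within its own (-0.14 to -0.05). WT1 and WT4 were each the lowest embryo for 49 of the 145 X-linked genes (33.8%), against 18.4% and 25.6% of the autosomal genes. Without WT4 and WT5, the median of WT1 against WT2 and WT3 was -0.40 for the X-linked genes and -0.02 for the 5551 autosomal ones, and WT1 was lower for 76.6% and 52.7% of them. These are descriptions of 5 embryos with no test, and the part that sex, litter or array plays in them was not tested.

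**Figure D4:**
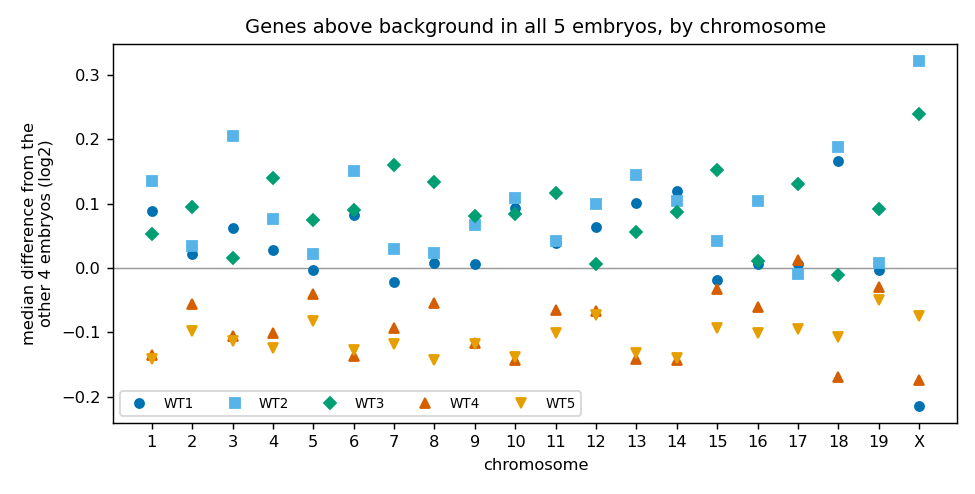
Median difference of each wild-type embryo from the other embryos (log2) over the genes above background in all 5, by chromosome, 1 symbol per embryo. On the X chromosome WT1 (-0.21), WT2 (0.32), WT3 (0.24) and, narrowly, WT4 (-0.17) lie outside their own ranges over the autosomes, and WT5 lies within its range.

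**Figure D5:**
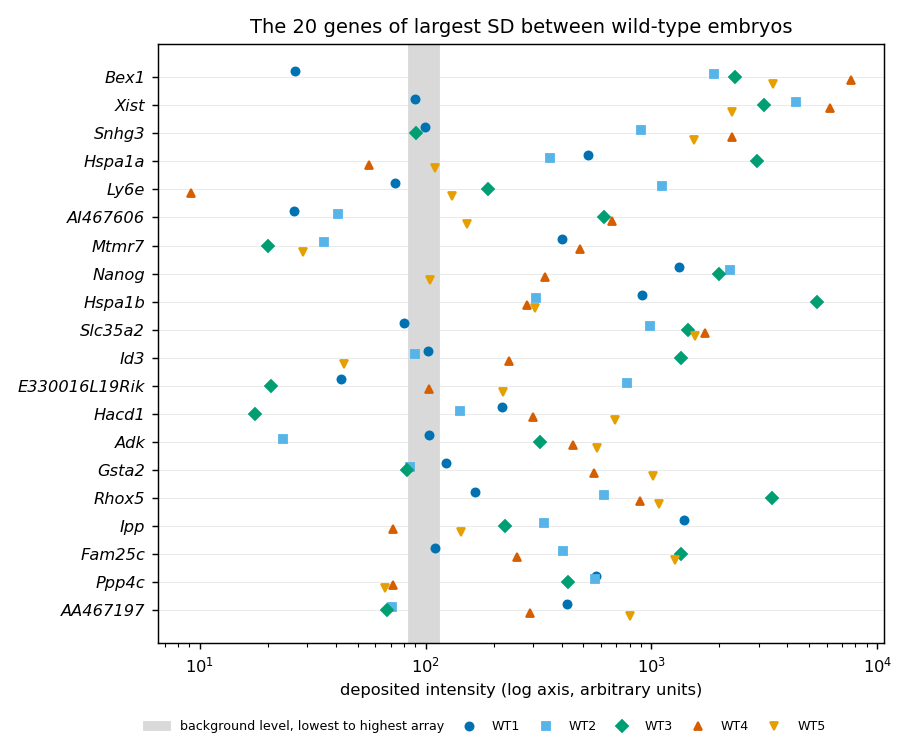
Intensity of the 20 genes with the largest SD between wild-type embryos on a log axis in arbitrary units, 1 symbol per embryo, with the background level of the 5 arrays as a grey band. Bex1, Xist and Slc35a2 have WT1 alone at the low end, and Hspa1a and Hspa1b have WT3 alone at the high end.

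A pair of inducible heat shock genes formed a second group. Hspa1a and Hspa1b, neighbouring copies that encode the stress chaperone HSP70, are near identical in sequence, so their probe sets may share signal and their levels are uncertain as separate genes. Hspa1a read 525, 356, 2946, 56.4 and 110.5, and Hspa1b 905, 308, 5389, 283 and 306. A second Hspa1b probe set was at background in all embryos (10.6 to 19.1), with no embryo apart. WT3 was highest for both, 5.61-fold and 5.96-fold over the next embryo, which was WT1 for both. Some other heat-inducible genes, picked after their values were seen, had WT3 highest by a smaller margin. Hsph1 read 8847, 9418, 12557, 9539.5 and 7906, and Hspb1 319, 181, 598, 273 and 471. Dnajb1 read 3315, 2621, 3519.9, 2699 and 2988, with WT3 little above WT1. How many genes of the heat shock and stress list had WT3 highest was not counted. Among all tested genes WT3 was the highest embryo for 21.6%. The constitutive chaperone genes Hspa8 and Hspd1 were highest in WT1. Hspa8 read 20864.5, 18352, 18095, 10430.2 and 11615, Hspd1 7548 to 9159, and the immediate early genes Fos (17.6 to 46.8), Jun (30.2 to 69.3) and Egr1 were at background in all embryos. Of the 25 genes of the heat shock and stress list 16 were on in all embryos, beside 33.7% of all genes.

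The start regions of the pair are shown because the genes moved together. The windows run from 250 bases before to 50 after the start, from RefSeq on GRCm38.p6, both on the minus strand of chromosome 17. Hspa1a lies at chr17:34972107-34972406 and Hspa1b at chr17:34959189-34959488. The letters GAANNTTC, which are only part of a full heat shock element, are in capitals.
Hspa1a: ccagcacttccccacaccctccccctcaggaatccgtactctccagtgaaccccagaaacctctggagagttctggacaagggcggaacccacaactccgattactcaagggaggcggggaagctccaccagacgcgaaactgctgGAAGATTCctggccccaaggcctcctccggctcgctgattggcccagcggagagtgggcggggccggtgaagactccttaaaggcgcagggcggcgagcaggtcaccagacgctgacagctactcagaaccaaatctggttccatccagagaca
Hspa1b: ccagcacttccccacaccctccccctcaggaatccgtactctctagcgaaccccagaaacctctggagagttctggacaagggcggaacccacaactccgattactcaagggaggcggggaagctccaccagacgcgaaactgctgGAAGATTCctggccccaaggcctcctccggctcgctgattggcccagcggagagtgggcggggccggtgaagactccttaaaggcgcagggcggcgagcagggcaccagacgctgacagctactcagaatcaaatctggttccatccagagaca
The windows were identical at 296 of 300 positions (98.7%), and each held GAANNTTC once, 104 bases before the start. The motif reads the same on both strands and was present in 2582 of 32851 such windows (7.86%). A match is a description of letters and not of a bound site.

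Other variable genes differed in which embryos were high. Id3, a target of BMP signalling that blocks helix-loop-helix factors, read 103, 89.4, 1346, 233 and 43.6, highest in WT3, while its paralogue Id1 was at background in all (26.4 to 44.4). Snhg3, a host gene of small nucleolar RNAs, read 99.7, 896, 91.0, 2285 and 1546. Ly6e read 73.5, 1117, 189, 9.15 and 131, Mtmr7 404, 35.5, 20.2, 484 and 28.8, and Adk, the adenosine kinase gene, 104, 23.4, 322, 449 and 572. Each was at or under the background level in at least 1 embryo and well over it in others. The other tested probe sets of Ly6e (57.6 to 88.3, SD 0.21) and Mtmr7 (56.7 to 92.0, SD 0.22) lay near or at background, without such a spread. Those of Adk were at background in all embryos (SD 0.12 and 0.50). Of the 85 genes with an SD over 1 that had a second tested probe set, the second had an SD over 1 for 7 (8.24%) and the same lowest embryo for 43.5%, against 2.34% and 32.4% over the 4779 such genes in all.

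WT4 and WT5 were finally compared with WT1 to WT3 by limma, as a measure of how far the array sets differ. Of 23174 probe sets 839 (3.62%) passed an adjusted p of 0.05, of which 779 (3.36%) were lower and 60 (0.259%) higher in WT4 and WT5. By gene, 431 of 12527 (3.44%) were called, 403 (3.22%) lower and 28 (0.224%) higher. The number of calls was not stable, since it fell to 0 probe sets when WT1 or WT2 was left out and to 167 without WT3. Each of these fits has fewer arrays and so less power. At an unadjusted limma p under 0.05 the comparison held 5164 probe sets with all arrays. It held 4574, 4357 and 4703 without WT1, WT2 and WT3. Leaving out WT4 or WT5 leaves 1 array in that set, so those fits are not read here.

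After Nanog, the largest differences downwards were those of Ppp4c, a phosphatase subunit (567, 564 and 429 against 71.9 and 66.0), Ube2q2, a ubiquitin-conjugating enzyme (393, 514 and 492 against 77.8 and 51.6), and Rest, a repressor of neuronal genes (609, 687 and 697 against 137 and 85.5). Ppp4c and Ube2q2 were under the background level in WT4 and WT5, and Rest was under it in WT5, so the sizes of these differences are uncertain. A second Rest probe set did not follow, at 321, 247 and 237 against 124 and 286 (limma adjusted p 0.488). Arid1a, a subunit of the BAF remodelling complex, was lower on both of its tested probe sets, with 860, 920 and 730 against 201 and 114 on the brighter. Rps9 was lower on its brightest probe set (9510, 5524 and 8517 against 1090 and 2208), but another read 382, 6799 and 242 against 6930 and 6331. Among genes that were higher in WT4 and WT5, Gsta2, a glutathione transferase, read 124, 85.2 and 82.8 against 559 and 1018, and Nfkbia, the NF-kappaB inhibitor, 285, 280 and 494 against 1821 and 1708. Rgs2, Ifitm3, Col6a2 and Zscan21 were also among the 10 largest differences upwards. Rgs2 was above background in WT5 alone (148), and Ifitm3 was under it in WT1 and WT3, so the sizes for these genes are uncertain too. A second Zscan21 probe set was not called (limma adjusted p 0.258), and another read 129, 155 and 117 against 95.5 and 97.0. Of the genes called lower, 159 had a second tested probe set, and 95 of these (59.8%) had the same sign there and 25 (15.7%) were called as well. Of the genes called higher, 15 had a second tested probe set. The sign was the same there for 11 (73.3%), and 0 were called.

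Housekeeping genes were among those called lower. Of 29 proteasome genes 6 were called lower and of 22 translation factors 5, with Eif5a at 1512, 1336 and 1367 against 370 and 425, beside 3.22% of all tested genes. None of the 29 and none of the 22 were called higher. The proteasome and translation factor lists are brighter than genes at large (median mean log2 11.6 and 12.2, against 6.46 over all genes). No share at like level was computed. With the level filter at the 60th percentile, limma called 1001 of 15449 probe sets, against 839 of 23174 at the 40th. Of 30 tested cell cycle genes 4 were called lower, and of 40 respiratory chain genes 4. In the apoptosis list Apaf1 was called lower (108, 130 and 91.9 against 23.4 and 26.4) and Bcl2l11, the gene of the death-promoting protein BIM, higher (179, 156 and 218 against 394 and 500). None of the tested trophectoderm epithelium (24), cholesterol (23), heat shock (21) or WNT, BMP and NODAL genes (25) was called in either direction. With 3.44% of all tested genes called, lists of this size can hold no call at that same share. Whether these differences belong to the embryos or to the 3′ bias of their arrays was not tested.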

How the data were processed

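The deposited table gave linear intensity values per probe set for each array, not detection calls. Per the labels' protocols and the series description, cDNA was amplified from single embryos, biotin-labelled and analysed in GeneSpring GX by the authors; the normalization is not given in the sources used here. Values were analysed as log2(intensity + 16), a log2 scale computed here from the deposited intensities. Probe sets past the level filter had a mean at or above the 40th percentile over the 5 arrays. Probe sets were named from the platform annotation, 30854 with 1 symbol, 781 with several and 6988 with none. A gene was read at its probe set of highest mean. limma 3.58.1 in R 4.3.3 compared the array sets, with Benjamini-Hochberg adjustment.

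The lists and members were chosen with earlier results of these data known. Named genes were the 20 brightest, the 20 most variable, the 15 most variable within the array sets, the 10 largest differences per direction between the sets, 32 fixed lineage and sex-linked names (29 measured by a probe set with a single symbol), and in each list the 3 brightest, the 3 most variable and members at odds with it. Other genes named from the lists were added for their roles after their values were seen. Tests were checked on simulated data. Control probe sets and the knockout embryos were left out. The number of arrays limits precision.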

Additional observations from a re-analysis of the deposited data

Results flagged for a closer look

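In 7 of the 70 groups of 5 embryos examined, 1 embryo stood apart from the others by Dixon's ratio of gap to range, for which the critical value is 0.71. Chance flags about 5% of groups that were not chosen by their values. These groups include the genes picked for the largest spread (Bex1, Xist and Slc35a2 among them), for which that rate does not hold, so the number is a description and no test. WT1 was the lowest embryo for Xist (0.756), Bex1 (0.732) and Slc35a2 (0.808), all X-linked, and the highest for the Y-linked Eif2s3y (0.894), although Eif2s3y was under the background level on every array. WT4 was the lowest for the ribosomal protein gene Rps18 (0.828) and the highest for Tsix, the antisense partner of Xist, at background in all (0.778). WT5 was the highest for Rpl35 (0.717), a gene whose values spanned only 22138 to 24379.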

How the results depend on the processing

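With the background level set at the 99th percentile of its probe sets, 3649 genes in place of 5707 were above it in all embryos. The lists then held 4 primitive endoderm genes (8 before), 2 oocyte and maternal-effect genes (6), 4 apoptosis genes (7), 3 FGF and ERK genes (9), 7 Hippo genes (12), 9 polarity genes (14), 3 imprinted genes (5), 1 later trophoblast gene (2), 1 gastrulation gene (3), and 0 each for the Y-linked, blood and adult tissue lists (1 each). With the median over a gene's probe sets in place of its brightest, counts were 5 for primitive endoderm, 3 for apoptosis, 7 for Hippo, 1 for imprinted, 5 for X inactivation (9 before) and 0 for later trophoblast and blood. The count of genes with an SD over 1 was 330 with a pseudocount of 1, 77 with 64, and 73 as a residual within the array sets. The array set comparison called 248 probe sets after quantile normalization, 558 with no level filter and 475 with an intensity trend and a robust prior. It called 0 to 167 when WT1, WT2 or WT3 was left out. Leaving out single embryos gave 5737 to 6038 genes above background, 8590 to 8858 at background, and 168 to 263 with an SD over 1. Without WT4 and WT5 the X-linked median of WT1 was -0.40, a setting added after the data were seen. No paired analysis was possible because no labelled groups are compared here.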
